A study of Rattus norvegicus with 6 samples.

Results

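The miR-181 family of miRNAs was examined in primary sertoli cells of the rat, the somatic cells that nurse germ cells in the seminiferous tubule, after exposure to 4-nonylphenol (4-NP), an alkylphenol with estrogen-like action. Its members were every counted mature miRNA named rno-miR-181a, rno-miR-181b, rno-miR-181c or rno-miR-181d, whichever arm of the hairpin it came from, together with rno-miR-3570 (the prefix, for the rat, is left out from here on). This gave 11 of the 734 mature miRNAs in the count table. The control group consisted of 3 samples without 4-NP and the 4-NP group of 3 samples treated with 0.5 mM 4-NP. The study describes its dose series at 24 h and gives no separate time for these libraries. The cells of both groups came from the testes of Sprague-Dawley rats aged 5 to 10 days and were grown in serum-containing medium. What the controls received in place of 4-NP is not given in the sources used here. The sample labels do not say whether the samples came from separate cultures or animals, so the p-values measure only the spread between these samples, which may be technical.

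A miRNA is cut from a hairpin with a 5p and a 3p arm, and usually one arm, the guide, is loaded into Argonaute while the other, the passenger, is mostly degraded. The guide finds its messenger RNAs mainly through its seed, bases 2 to 8. The miR-181 guides are the 5p arms and are best known from the thymus, where they tune the response of developing T cells to antigen. The rat has a miR-181a gene beside a miR-181b gene on chromosome 13, another such pair on chromosome 3, and miR-181c beside miR-181d on chromosome 19. The 5p arms of the gene copies of miR-181a have the same sequence, so a read of it cannot be traced to a copy, whereas the 3p arms differ between the copies.

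RefSeq held sequences for 10 of the 11 names in the GRCr8 assembly, and miR-181b-2-3p was the name without one. The guides are shown because they share 1 seed, printed in capitals here and in the later lines, which only these 4 of the 693 mature sequences in that table carried.
miR-181a-5p: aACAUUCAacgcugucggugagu
miR-181b-5p: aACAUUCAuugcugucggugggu
miR-181c-5p: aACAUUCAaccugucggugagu
miR-181d-5p: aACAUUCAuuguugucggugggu
With positions counted from the 5′ end, miR-181a-5p and miR-181b-5p differed by A9U, C10U and A21G, and miR-181b-5p and miR-181d-5p by C12U alone. miR-181c-5p was 1 base shorter than miR-181a-5p, and 1 edit turned one into the other. How a read was placed among such close sequences is not given in the sources used here, so reads could have been split between these names.

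The 3p arms did not share that seed, and those whose counts the results below turn on are shown with miR-3570.
miR-181a-1-3p: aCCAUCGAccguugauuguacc
miR-181c-3p: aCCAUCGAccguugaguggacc
miR-181a-2-3p: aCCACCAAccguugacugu
miR-181d-3p: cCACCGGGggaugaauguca
miR-3570: gGUACAAUcaacggucgauggu
miR-181a-1-3p and miR-181c-3p had the same seed and differed by U16G and U19G. miR-3570 is annotated on the opposite strand of the miR-181a-1 gene. Its mature sequence (GRCr8, chr13:52037121-52037142, minus strand) is the exact reverse complement of miR-181a-1-3p (the same 22 bases, plus strand).

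The libraries had 20023200 to 23426742 reads on mature miRNAs, and levels are given as CPM, the reads scaled to 1000000 of these, without scaling for length (the printed sequences have 19 to 23 bases). Where a sample had 0 reads, up to 3 remain possible, or 0.128 to 0.150 CPM depending on the sample. This limit, and the interval of read ratios given further on, cover counting error only, since amplified reads are not independent molecules. miR-21-5p took 62.0 to 63.9% of the mature reads in every sample, and all family members together took 0.849 to 1.10%. All 5 miRNAs taken here as sertoli cell markers were counted. Their summed level was 1316 to 1585 CPM in the controls and 763 to 844 CPM after 4-NP. The 3 of the 5 that fell were miR-741-3p (group means of 434 and 56.8 CPM), miR-471-5p (21.1 and 2.16 CPM) and miR-880-3p (11.9 and 0.332 CPM). Neither arm of miR-202 was called. miR-202-5p had 1026 and 746 CPM (adjusted p = 0.0858 in edgeR), and miR-202-3p had 1.98 and 3.39 CPM (adjusted p = 0.725 in edgeR). None of the markers of other cell types that were looked up was at 0 in all samples. The 4 myoid and smooth muscle markers (arms of miR-143 and miR-145) summed to 120596 to 136273 CPM in the controls and 88389 to 96697 CPM after 4-NP (2 of 4 fell). The 2 endothelial markers summed to 6325 to 7615 and 3234 to 3805 CPM (both fell). The 4 leukocyte markers, from cells in which miR-181 is abundant, summed to 18.1 to 22.3 and 17.3 to 36.9 CPM, and none was called. The 4 erythroid markers summed to 11.0 to 40.7 and 59.3 to 631 CPM (1 of 2 tested rose). The 5 meiotic germ cell markers summed to 150 to 167 and 162 to 197 CPM. The 4 of them that rose were the arms of miR-34b and miR-34c, with group means of 6.10 to 11.2 and 13.3 to 22.4 CPM. The other, miR-449a-5p, was the most abundant, at 124 and 106 CPM, and was not called. For the 3 striated muscle markers the sums were 14.0 to 19.5 and 13.2 to 14.8 CPM (none of 2 tested was called). Neither the cells that these marker reads came from nor the part of these shifts in the miR-181 values was tested.

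None of the miR-181 family members passed the test for a change after 4-NP, while many other miRNAs of these cells did. Of the 11, 8 passed the filter on low counts and entered the fit over 549 miRNAs with edgeR's quasi-likelihood test, and 0 of the 8 had a Benjamini-Hochberg adjusted p under 0.05. The same test called 20.2% of all tested miRNAs, 7.47% as higher and 12.8% as lower. At the study's thresholds, a fold change over 2 or under 0.5 with an unadjusted p under 0.05, 0 of the 8 were called, against 15.7% of all tested miRNAs (5.83% higher and 9.84% lower). At an unadjusted p under 0.05 alone, 1 of the 8 (miR-181c-3p) and 196 of the 549 were found. With DESeq2 all 11 were tested, 0 had an adjusted p under 0.05 and 2 (miR-181c-5p and miR-181d-3p) had an unadjusted one. With limma 0 of 8 and with edgeR's classic exact test 0 of 8 had an adjusted p under 0.05. The median log2 fold change of the 8 was 0.088, beside -0.015 for all tested miRNAs, and 5 of the 8 had a value above 0, beside 49.0% of all. In such bulk samples fewer cells of a type and less RNA per cell cannot be told apart.

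**Figure D1:**
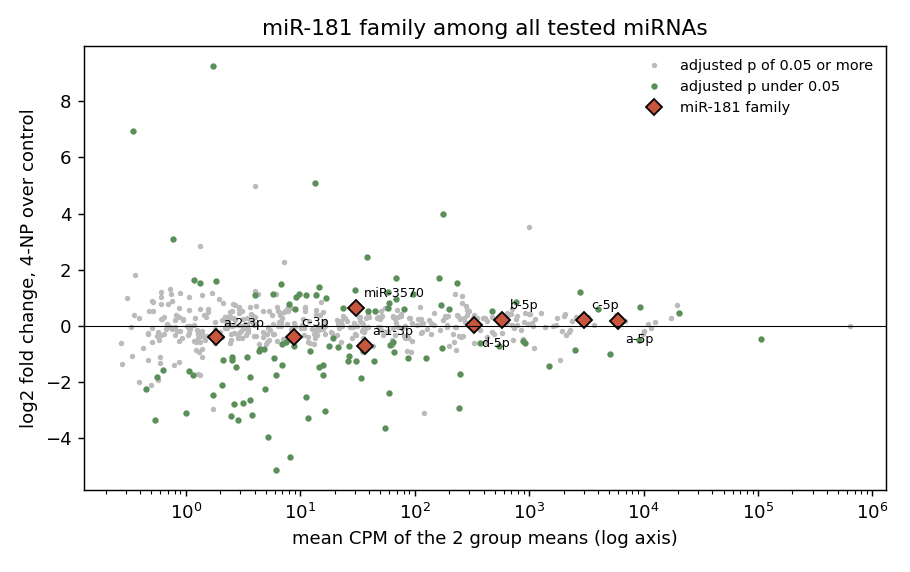
Log2 fold change (4-NP over control, edgeR) against the mean CPM of the group means on a log axis, 1 point per tested miRNA. Green points had an adjusted p under 0.05 and grey points did not. The 8 tested miR-181 family members (diamonds, labelled by the end of the name) lie among the grey points, between -0.72 and 0.64.

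Among the guides, miR-181a-5p was the most abundant member and ranked 15 among the 734 mature miRNAs by mean CPM. It had 4914, 6262 and 5679 CPM in control samples 1, 2 and 3, and 6408, 6654 and 5853 CPM in 4-NP samples 1, 2 and 3. The groups overlapped, through control 2 and 4-NP 3. edgeR gave a log2 fold change of 0.15 with a standard error of 0.09 (adjusted p = 0.28), with a 95% interval of 0.952- to 1.29-fold, so the 2-fold change of the study's threshold lay outside it. When the CPM were scaled with the TMM factors of edgeR, which was tried after the values were seen, the controls ran from 5167 to 5996 CPM and the 4-NP samples from 6114 to 6529 CPM, without overlap, as for 43.4% of all tested miRNAs on that scale.

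miR-181c-5p was the second guide by level, with rank 22. Its CPM were 2768, 2780 and 2708 in the controls and 3386, 3085 and 3248 after 4-NP. All 4-NP samples were above all controls. edgeR gave a log2 fold change of 0.21 with a standard error of 0.10 (adjusted p = 0.188), with a 95% interval of 0.980- to 1.37-fold.

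miR-181b-5p, made from the genes beside those of miR-181a, had 451, 581 and 583 CPM in the controls and 708, 700 and 482 CPM after 4-NP. 4-NP samples 1 and 2 were above all controls, and 4-NP 3 was below control 2 and control 3. edgeR gave a log2 fold change of 0.20 with a standard error of 0.17 (adjusted p = 0.45). miR-181d-5p, made from the gene beside that of miR-181c, had 285, 360 and 332 CPM in the controls and 390, 350 and 270 CPM after 4-NP. Its highest and its lowest sample were both in the 4-NP group. edgeR gave a log2 fold change of 0.027 with a standard error of 0.15 (adjusted p = 0.917). The 95% intervals of these guides, 0.860- to 1.54-fold and 0.792- to 1.31-fold, also left out a 2-fold change in either direction.

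**Figure D2:**
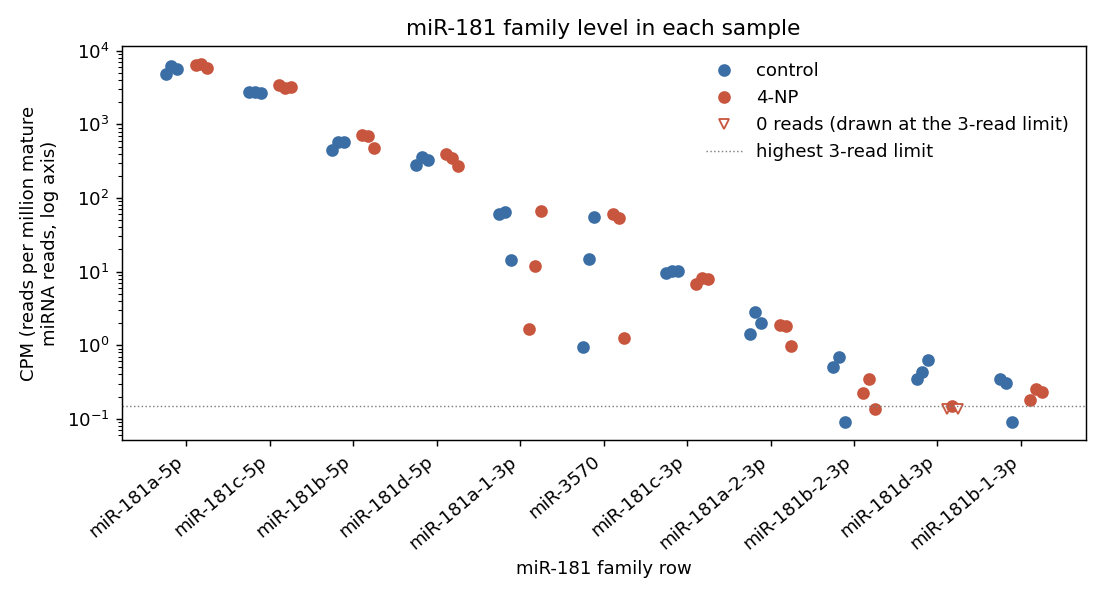
CPM of each of the 11 family members (log axis) in each sample, ordered by mean level. Blue points are the 3 controls, red points the 3 4-NP samples, and open triangles samples with 0 reads, drawn at the limit of 3 reads. The guides span 270 to 6654 CPM, while miR-181a-1-3p and miR-3570 spread widely within both groups.

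The order of the guides was the same in every sample, miR-181a-5p above miR-181c-5p, miR-181b-5p and miR-181d-5p, and their ranges over the 6 samples did not overlap. The 3p arms and miR-3570 followed at far lower levels. The ranges of miR-181a-1-3p (1.67 to 67.2 CPM), miR-3570 (0.939 to 61.0 CPM) and miR-181c-3p (6.82 to 10.2 CPM) overlapped, so these neighbours cannot be ordered. miR-181a-2-3p, at 0.959 to 2.81 CPM, was below miR-181c-3p in each sample. The last members, miR-181b-2-3p, miR-181d-3p and miR-181b-1-3p, were close to the limit of detection and overlapped each other.

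The make-up of the guide reads overlapped between the groups. miR-181a-5p held 58.4, 62.7 and 61.1% of the reads on the 4 guides in the controls and 58.8, 61.7 and 59.4% after 4-NP. miR-181c-5p held 32.9, 27.8 and 29.1% and then 31.1, 28.6 and 33.0%. miR-181b-5p made up 4.89 to 6.50% and miR-181d-5p 2.74 to 3.60% over all samples. No share separated the groups. Of 9 ratios between arms that were compared within samples, where scaling plays no part, 3 concerned the guides. For miR-181c-5p plus miR-181d-5p over miR-181a-5p plus miR-181b-5p, the ratio was 1.03-fold that of the controls (exact permutation test over samples, two-sided p = 0.9, adjusted over the 9 ratios p = 0.9). For miR-181a-5p over miR-181b-5p it was 0.970-fold (exact permutation p = 0.8, adjusted p = 0.9). For miR-181c-5p over miR-181d-5p it was 1.14-fold (exact permutation p = 0.4, adjusted p = 0.72). With 3 samples a group this test cannot give a p below 0.1, so no ratio could reach 0.05.

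The passenger arm of miR-181c had a difference of the opposite sign to that of its guide. In the controls, miR-181c-3p was counted 224, 234 and 228 times (9.56, 10.1 and 10.2 CPM). In the 4-NP samples it was counted 151, 162 and 174 times (6.82, 8.09 and 7.95 CPM). All 4-NP samples were below all controls. edgeR gave a log2 fold change of -0.41 with a standard error of 0.15 (adjusted p = 0.105), or 0.755-fold with a 95% interval of 0.588- to 0.968-fold. Among the 8 tested members, miR-181c-5p and miR-181c-3p were the 2 whose groups did not overlap, where 42.4% of all tested miRNAs did not overlap (19.9% higher and 22.6% lower after 4-NP).

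Within each sample, miR-181c had 0.345, 0.364 and 0.378 reads on the 3p arm per 100 reads on the 5p arm in the controls and 0.202, 0.262 and 0.245 after 4-NP. The ratio was below that of every control in each 4-NP sample, at 0.648-fold (exact permutation p = 0.1, the smallest possible, adjusted over the 9 ratios p = 0.3). For comparison, 153 hairpins had both arms tested, reads on both in every sample, and names that differed only in 5p and 3p. Those of miR-181a, whose 3p names carry a copy number, were thus left out. Of the 153, 32.0% had a ratio of 3p to 5p that did not overlap between the groups. In 19.0% it did not overlap and was lower after 4-NP. miR-181c was the 1 hairpin of the 153 (0.654%) in which both arms were without overlap and in opposite directions. That criterion was chosen after the values of miR-181c were seen, and it is given as a description.

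**Figure D3:**
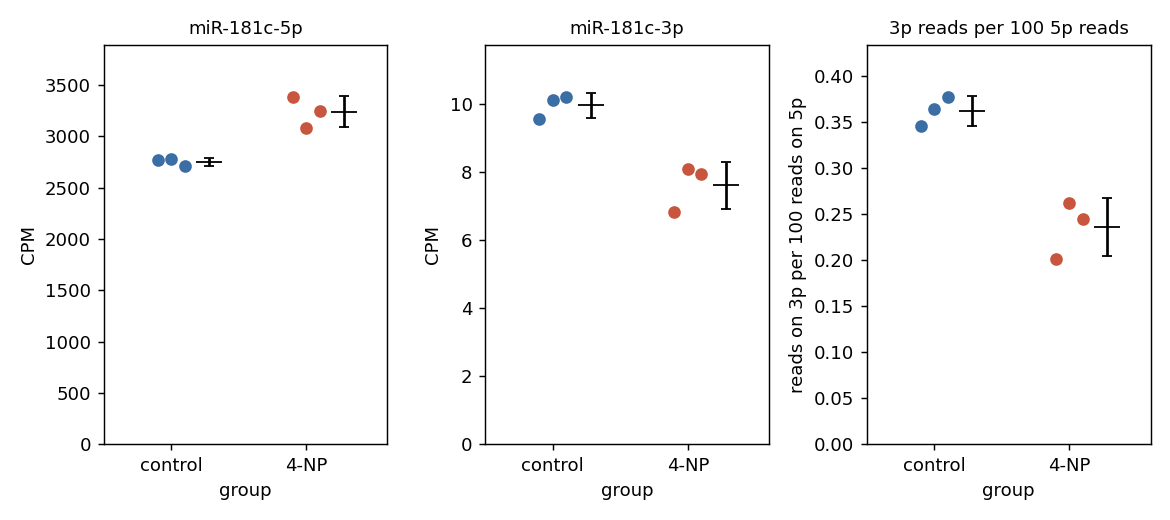
CPM of miR-181c-5p (left) and miR-181c-3p (middle), and reads on the 3p arm per 100 reads on the 5p arm (right), in each sample of both groups, with the mean and SD (n = 3) beside the points. The 4-NP samples sit above the controls for the 5p arm (3085 to 3386 against 2708 to 2780 CPM) and below them for the 3p arm and the ratio.

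The passenger arm of the neighbouring gene, miR-181d-3p, was rare. Its reads numbered 8, 10 and 14 in the control samples, against 0, 3 and 0 with 4-NP, too few to pass the filter. Every control was above every 4-NP sample, as for 22.6% of the miRNAs that did pass the filter. Over the group, 32 reads against 3 gave a level that was 9.93-fold higher in the controls, with an interval of 3.11- to 50.7-fold (exact binomial, 95%) for counting error only. Without a filter on low counts, its adjusted p was 0.0952 in edgeR, and in DESeq2 it was 0.144. With 0.5 added to each count, its ratio of 3p to 5p was also without overlap (exact permutation p = 0.1, adjusted p = 0.3). Among the 153 hairpins above, whose arms all passed the filter, 19.0% had a ratio without overlap that was lower after 4-NP.

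For the family as a whole, the reads on all 3p arms and miR-3570 per 100 reads on the guides were 0.868, 0.938 and 0.881 in the controls and 0.659, 0.709 and 0.788 after 4-NP. Each 4-NP sample was below each control, at 0.801-fold (exact permutation p = 0.1, adjusted p = 0.3). In the 153 hairpins compared one by one, the ratio of 3p to 5p was without overlap in 32.0%, and in 19.0% also lower after 4-NP. The summed reads on the 3p arms and miR-3570 overlapped, at 73.0, 93.6 and 82.0 CPM in the controls and 71.8, 76.5 and 77.7 CPM after 4-NP. The summed guides were at 8417, 9983 and 9301 CPM in the controls and 10892, 10789 and 9853 CPM after 4-NP, and control 2 was above 4-NP 3.

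miR-181a-1-3p and miR-3570, the names on opposite strands of 1 locus, varied widely within both groups. The reads of miR-181a-1-3p numbered 1404, 1491 and 317 in the control samples, against 37, 241 and 1471 with 4-NP. Those of miR-3570 numbered 22, 339 and 1219, against 1349, 1076 and 27 with 4-NP. Where one was high the other was low: control 1, control 2 and 4-NP 3 had mostly miR-181a-1-3p, and control 3, 4-NP 1 and 4-NP 2 mostly miR-3570. miR-3570 took 1.54, 18.5 and 79.4% of the reads of the pair in control samples 1, 2 and 3, against 97.3, 81.7 and 1.80% in 4-NP samples 1, 2 and 3.

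The sum of the pair spread far less than either name. Its reads came to 1426, 1830 and 1536 in the control samples, at 60.9, 79.2 and 68.9 CPM. With 4-NP they came to 1386, 1317 and 1498, at 62.6, 65.8 and 68.4 CPM. On the CPM scale the highest and the lowest sums were both those of controls, and the groups overlapped. When the sum replaced both names in the fit, edgeR gave it a log2 fold change of -0.088 with a standard error of 0.13 (adjusted p = 0.687), with a 95% interval of 0.757- to 1.17-fold. Separately, miR-181a-1-3p had one of -0.72 (standard error 1.18, adjusted p = 0.724) and miR-3570 one of 0.64 (standard error 1.49, adjusted p = 0.796), with intervals that ran from 0.0853- to 4.35-fold and from 0.130- to 18.6-fold. The share of miR-3570 thus ran from 1.54 to 79.4% within the controls and from 1.80 to 97.3% within the 4-NP group.

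**Figure D4:**
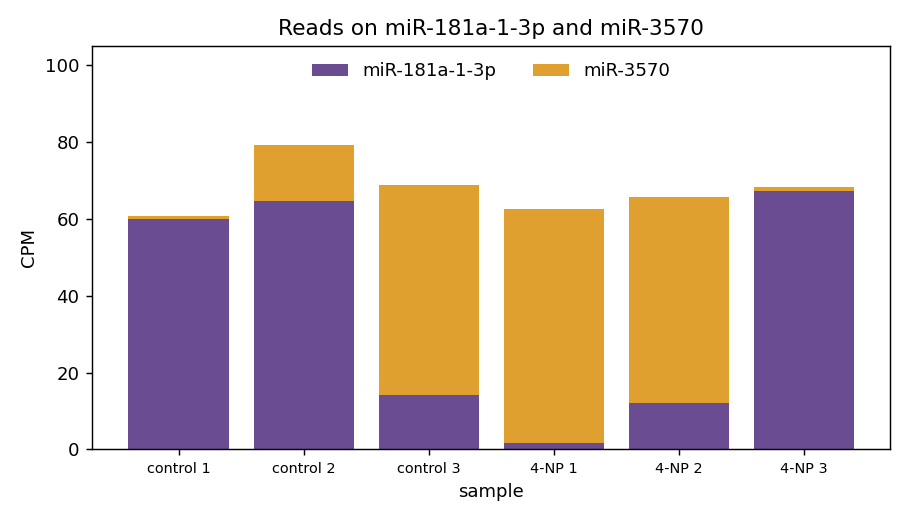
CPM of miR-181a-1-3p (purple) with that of miR-3570 (orange) stacked on it, in each sample. The bars reach 60.9 to 79.2 CPM, while the share of miR-3570 runs from 1.54 to 97.3%.

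The 3p arm of the other miR-181a gene, miR-181a-2-3p, was counted 33, 65 and 45 times in the controls and 42, 37 and 21 times in the 4-NP samples. The groups overlapped, and edgeR gave a log2 fold change of -0.42 with a standard error of 0.33 (adjusted p = 0.39). The sum of miR-181a-1-3p and miR-3570 had 43.2, 28.2 and 34.1 times as many reads as miR-181a-2-3p in the controls and 33.0, 35.6 and 71.3 times as many after 4-NP. 4-NP 3 stood above the other 5 samples, and the groups overlapped (exact permutation p = 0.6, adjusted p = 0.771). With miR-181a-1-3p alone, the same ratio ran from 0.881 in 4-NP 1 to 70.0 in 4-NP 3 (exact permutation p = 0.6, adjusted p = 0.771).

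The 3p arms of the miR-181b genes were near the limit of detection. For miR-181b-1-3p there were 8, 7 and 2 reads in the control samples, against 4, 5 and 5 with 4-NP. For miR-181b-2-3p there were 12, 16 and 2, against 5, 7 and 3. Control 3 had the lowest count of both, and the groups overlapped. Their ratio overlapped too (exact permutation p = 0.4, adjusted p = 0.72), and no difference was detectable at this depth.

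**Figure D5:**
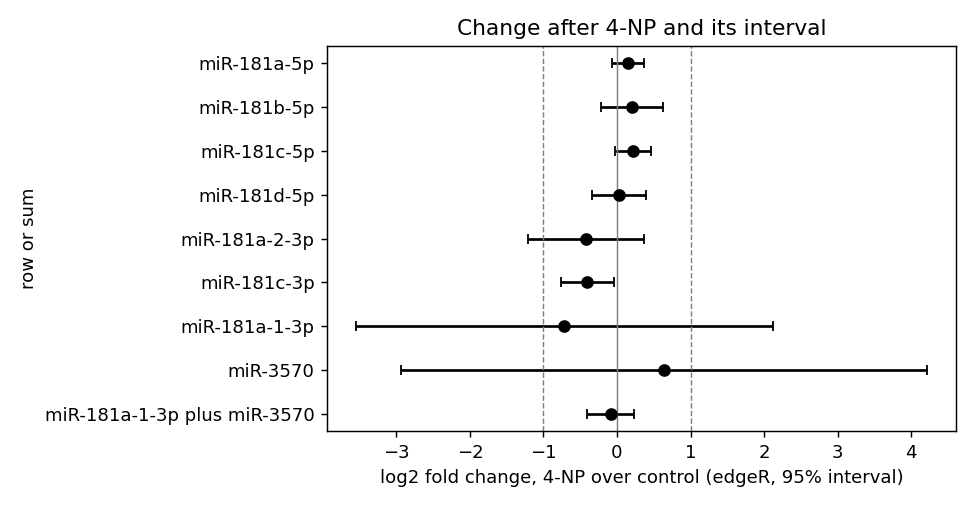
Log2 fold change (4-NP over control) with its 95% interval from edgeR for the 8 tested members and for the sum of miR-181a-1-3p and miR-3570, with dashed lines at a 2-fold change. The intervals of the 4 guides and of the sum lie within the dashed lines, while those of miR-181a-1-3p and miR-3570 run far past both.

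The table also counts reads on precursors, grouped by Rfam family, with a row for the mir-181 precursor family. In size-selected small RNA such reads need not be whole precursors. How they were told apart from mature reads is not given in the sources used here. The reads of this row came to 12702, 15542 and 13966 in the control samples (542, 673 and 627 CPM), against 13091, 10611 and 9711 with 4-NP (592, 530 and 444 CPM). 4-NP 2 and 4-NP 3 were below all controls, and 4-NP 1 was above control 1. On the scaling of the mature miRNAs edgeR gave a log2 fold change of -0.26 with a standard error of 0.15 (adjusted p = 0.258 over 736 small RNAs that are not mature miRNAs). That fit called 7.74% of those small RNAs lower, and of the 93 precursor families tested in it 13 (14.0%), with a median log2 fold change of -0.024. With TMM factors computed from those other small RNAs, whose median log2 fold change on the scaling of the mature miRNAs was 0.46, the value was -0.64 and the adjusted p 0.0344 in edgeR, so the call depends on the scaling.

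As context, lists of miRNAs that are described together with miR-181 were counted in the same fit. Of 23 arms of miRNAs linked to TGF-beta signalling, 21 were tested, 0 were higher and 6 were lower, with a median log2 fold change of -0.26, beside 7.47% higher, 12.8% lower and a median of -0.015 over all tested miRNAs. Of the 6, miR-143-3p and miR-145-3p are also the 2 myoid markers that fell. Both arms of miR-214 were among the 6 too, so these are not 6 independent members. The most abundant of the 21 tested, miR-21-5p, was not called and had -0.0013 (standard error 0.068, adjusted p = 0.991 in edgeR). miR-143-3p fell by 0.50 on the log2 scale (standard error 0.10, adjusted p = 0.0177 in edgeR). Of 16 arms of miRNAs known from lymphocytes, 13 were tested, 3 were higher and 0 were lower, with a median log2 fold change of 0.43. This is to be read beside the same background of 7.47% higher and 12.8% lower, and both arms of miR-146a were among the 3. The most abundant of the 13 tested, miR-92a-3p, was not called and had 0.43 (standard error 0.14, adjusted p = 0.0741 in edgeR). The other of the 3 that were higher, miR-20a-5p, rose by 0.52 (standard error 0.12, adjusted p = 0.0291 in edgeR).

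The miRNAs outside the family whose log2(CPM + 1) followed that of miR-181a-5p most closely over the 6 samples were miR-146b-5p (Pearson's r of 0.985), the authors' predicted novel_mir5 (0.970) and miR-423-3p (0.965). They were chosen for this likeness out of all tested miRNAs and share libraries and depth with it, so no test was made. miR-146b-5p had 103, 114 and 112 CPM in the controls and 119, 120 and 112 CPM after 4-NP. None of the 3 was called, with adjusted p values of 0.728, 0.143 and 0.192 in edgeR.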

How the data were processed

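Small RNA of 3 control and 3 4-NP-treated sertoli cell samples was analysed. The authors size-selected small RNA, added adapters that carry molecular identifiers, amplified and sequenced it. They deposited read counts without normalization in 1 table of 2363 rows. The submitters' processing notes name HISAT2 and DESeq2 without a role. The database, build and rule of assignment are not given in the sources used here. A further 6 columns named for the identifiers were not used. Treated columns were matched to samples by number. The 4 totals that name no gene (3.52 to 5.91% of reads) were left out.

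Library size was the sum of mature counts. The main test was edgeR 4.0.16 (R 4.3.3; quasi-likelihood, two-sided, TMM, filterByExpr, no replicate block) over all mature miRNAs, as the study names edgeR, and standard errors came from the fold change and F. Ratios were tested by exact permutation over samples (Python 3.11.15). Alternatives were DESeq2 1.42.0, limma 3.58.1 on log2(CPM + 1), the classic exact test, RLE or total-count scaling, omission of miR-21-5p, other filters, known miRNAs only, a replicate block and omission of each sample. The procedure was tested on counts simulated from the model that edgeR fits, without any split of reads between names. This cannot show how the procedure handles such splits. The text names all family members, the 3 miRNAs most like miR-181a-5p, list members by abundance, and further markers or list members where a count needed them. Members and lists were chosen with earlier results of these data known. Sequences are from RefSeq (GRCr8), matched by name. No coordinates underlie the counts.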

Additional observations from a re-analysis of the deposited data

How the results depend on the processing

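Over 16 alternatives for each of the 8 tested members, no adjusted p was under 0.05 in any of the 128 fits (lowest 0.0643, for miR-181c-5p), and 125 kept the direction. The exceptions were those of miR-181d-5p, with a log2 fold change of -0.014 with at least 10 counts in every sample, -0.033 without control replicate 1 and -0.050 without 4-NP replicate 1 (-0.050 to 0.15 on omission of each sample). The log2 fold change of miR-181c-3p ran from -0.46 to -0.29 (adjusted p of 0.0654 to 0.285) and that of miR-181c-5p from 0.16 to 0.34 (0.0643 to 0.661). At the study's thresholds, 1 member was lower with DESeq2 and 1 without a filter on low counts, miR-181d-3p both times. On omission of each sample in turn the number ran from 0 to 1, the 1 being miR-181a-1-3p without 4-NP replicate 3 (-2.77). Over all tested miRNAs, 26 in place of 41 were higher at an adjusted p under 0.05 with a replicate block, and 18 (limma) and 21 (at least 10 counts in every sample) in place of 32 were higher at the study's thresholds. The precursor family had -0.64 with TMM factors of the other small RNAs. The sum of miR-181a-1-3p and miR-3570 stayed uncalled in all alternatives, from -0.16 to -0.022 without 1 sample, where miR-181a-1-3p alone ran from -2.77 to -0.16 and miR-3570 alone from 0.072 to 2.31.

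Deviations of same-numbered samples correlated at -0.30, -0.27 and -0.021, so the numbers were not taken to pair the samples, and no sample correlated best with its own number. With a replicate block, 0 family members were called (miR-181c-3p -0.41, the sum of the pair -0.089), while miR-181a-1-3p went from -0.72 to -2.003 and miR-3570 from 0.64 to 1.63, and the precursor family, where the block was added after the values were seen, had -0.26. The 3p arms of miR-181b, with 2 to 16 reads a sample, and miR-181d-3p, with 0 to 14, had too few reads to pass the filter of the main fit.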

Other observations

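RefSeq places 41 pairs of counted mature miRNAs over each other on opposite strands by at least 15 bases, and the split of reads within them was compared after the values of miR-3570 were seen. The share of the minus-strand name had its widest range over the samples, 95.8 percentage points, for miR-181a-1-3p and miR-3570. In 8 pairs the sequences were exact reverse complements, and the range was over 50 points in 6 of these and in 3 of the other 33 pairs. Ranges over 90 points were found for 5 pairs. For let-7a-5p and miR-3596a the share of the minus-strand name ran from 1.49 to 97.0%, for miR-369-5p and miR-3578 from 1.33 to 97.1%, for miR-539-5p and miR-3576 from 3.36 to 97.9%, and for miR-3553 and miR-183-5p from 2.03 to 96.0%. Some of these pairs shared samples and others did not. Like miR-3570, miR-183-5p had most of the reads of its pair in control 3, 4-NP 1 and 4-NP 2, with 120, 396 and 358 reads against 8 to 25 in the other samples. miR-3596a had most of them in 4-NP 1 and 4-NP 2, with 63048 and 52410 reads, but not in control 3, with 2102. miR-3576 had most of them in the other 3 samples, control 1, control 2 and 4-NP 3, with 115, 95 and 134 reads. miR-3578 had most of them in control 1 and 4-NP 2, with 26490 and 12904 reads. The cause of these splits was not tested.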
